A study of Homo sapiens and Mus musculus with 24 samples.

Results

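The mRNAs of 10 core genes of the microRNA pathway were followed in human and mouse cells: DROSHA and DGCR8, DICER1, the Argonautes AGO1, AGO2, AGO3 and AGO4, and the GW182 proteins TNRC6A, TNRC6B and TNRC6C. The genes were chosen by name, with mouse genes matched by the same symbol, and all 10 were found among the 58381 human and the 53715 mouse genes counted. All 10 also passed the filter for testing in each of the 4 cell types, which asked for 0.5 CPM (counts scaled to a common library total) or more on average in nonirradiated samples. The cells were HepG2 (human hepatocellular carcinoma), HEK293 (human embryonic kidney, which the study's culture methods name HEK293T), Neuro2a (mouse neuroblastoma) and HippCulture (hippocampal neurons cultured from C57/BL6NCr mouse embryos at E16.5). Each cell type was studied without UV (conventional RNA-seq) and after UV irradiation of the cells (UPA-seq), with 3 replicates per group and 24 samples in all. In UPA-seq, UV joins RNA covalently to the proteins that touch it, and only the RNA that stays in the aqueous phase of a phenol extraction is sequenced. Both HippCulture groups had been given AraC to remove glia, which no other cell type received, and HepG2, HEK293 and Neuro2a are each a single cell line. Figure legends of the study call the replicates biological, while the labels do not say whether they were separate cultures, and the p-values measure the spread between these samples.

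MicroRNAs are made in steps. In the nucleus the Microprocessor, the nuclease DROSHA with its RNA-binding partner DGCR8, cuts hairpins out of primary transcripts, and in the cytoplasm DICER1 cuts off the loop of the hairpin. An Argonaute protein takes up a strand of the product, pairs with target mRNAs through the seed at bases 2 to 8 of the microRNA, and binds a TNRC6 protein, which recruits the enzymes that shorten poly(A) tails and remove caps. AGO2 is the Argonaute known for cutting perfectly paired targets.

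Samples held 36573473 to 53511592 counts on genes in HepG2 and 6910907 to 11188033 in the other cell types. Irradiated libraries were more concentrated, with up to 52.4% of counts in their 10 most counted genes against at most 32.4% without UV. Markers mostly followed the labels. All 6 hepatocyte markers were above 1 CPM in HepG2 (sum of medians 55750.0 CPM) and 1 of 6 in HEK293 (2.62 CPM). In HEK293, NEFL stood at 464 CPM but PAX2 at 0.84 CPM. Neuro2a expressed 3 of 5 neuroblastoma markers, with Hand2 at 116 CPM and Gata3 at 0.469 CPM. HippCulture expressed all 6 neuron and all 4 hippocampal neuron markers (sums of 3691 and 449.7 CPM), but also all 4 astrocyte markers (645.5 CPM, 567 CPM after UV) and all 3 oligodendrocyte markers (25.7 CPM). HEK293 held these astrocyte and oligodendrocyte lists at 90.7 and 39.7 CPM. Nonirradiated replicate 1 of HepG2 stood apart from replicates 2 and 3, with a chi-square per gene of 112 and 83.0 against 3.01 between the others. Replicate 1 of HEK293 stood apart in both groups (18.4 to 43.3 against 4.17 and 5.22). In HippCulture without UV, replicate 3 lay further from the others (14.0 and 22.4) than these did from each other (5.7).

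The DGCR8 mRNA itself carries microRNA hairpins, which the Microprocessor is known to cut. In the DGCR8 transcript with the longest open reading frame, the 88-nucleotide MIR3618 gene (hg38 chr22:20085746-20085833, plus strand) lay in the 5′ UTR and the 85-nucleotide MIR1306 gene (chr22:20086058-20086142) in the open reading frame. The mouse Dgcr8 transcript had Mir1306 in the same part, and Gm24572, a microRNA gene of the same length as MIR3618, in its 5′ UTR. The 3 mature microRNAs of these human hairpins are shown because they are pathway products encoded by a pathway mRNA. The RefSeq sequences (GRCh38.p14) are printed 5′ to 3′ with the seed in capitals, followed by let-7a, and no seed was shared.
hsa-miR-3618: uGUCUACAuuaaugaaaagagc
hsa-miR-1306-5p: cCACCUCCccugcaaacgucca
hsa-miR-1306-3p: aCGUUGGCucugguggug
hsa-let-7a-5p: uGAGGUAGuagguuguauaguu

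let-7a is shown because a site for its seed lies in the long 3′ UTR of AGO3 in both species. The 8-letter match CTACCTCA, searched on the mRNA strand only, occurred at base 13343 of the human and base 10427 of the mouse 3′ UTR. It was also in the 3′ UTR of AGO2 and Ago2 and in none of the other 8 members, while 3.0% to 4.0% of tested mRNAs in the 4 cell types held it. Tested mRNAs had median 3′ UTRs of 905 to 1104 nucleotides, far shorter than those of AGO3 and AGO2. The share is thus not matched for length. The AGO3 windows end with the match, in capitals, and come from hg38 chr1:36069066-36069095 (plus strand) and mm10 chr4:126335040-126335069 (minus strand).
AGO3, human: gagtggtaatacctgtcctcacCTACCTCA
Ago3, mouse: gagtggtggcacctgccctcacCTACCTCA

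The members were long mRNAs. Exons covered 7267 to 21157 bases per human member and 5935 to 23677 per mouse member, against medians of 4957 bases in HepG2 and 4319 in Neuro2a over tested mRNAs. Human 3′ UTRs were longest in AGO3 (16755 nucleotides), TNRC6B (12567), AGO2 (11888) and AGO1 (10823). They were shortest in DROSHA (938), TNRC6C (1192) and DGCR8 (1764), beside a median of 1076 over mRNAs tested in HepG2. In mouse the same end of the range held Drosha, whose annotated 3′ UTR was 168 nucleotides, and Dgcr8 (1574), while Ago3 (12742), Tnrc6b (11609) and Ago2 (11064) were longest. The Pumilio motif TGTANATA was found 6 times in the human AGO3 3′ UTR and not in DROSHA, DGCR8, TNRC6A or TNRC6C, and 25.9% of mRNAs tested in HepG2 had at least 1. That share is not matched for 3′ UTR length. AGO4, AGO1 and AGO3 are neighbours on human chromosome 1 (hg38 chr1:35808172-35857890, chr1:35869808-35930528 and chr1:35930718-36072500, all on the plus strand), and the mouse genes are neighbours on chromosome 4.

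Reads were counted for every gene they overlap, so shared exon bases matter. Other genes covered 12.94% of the exon bases of TNRC6C, 9.58% of DGCR8 and 13.62% of mouse Dgcr8, where Trmt2a, on the opposite strand, took 11.32%. For every other member the share was at most 2.85%. The counting commands name no strand option, so reads of such antisense partners cannot be told apart. Paralogs were distinct at read length, with no 50-base stretch in common among the human Argonaute transcripts and at most 1.74% of such stretches shared among the mouse ones (Ago1).

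Levels without UV were compared between members as RPKM, CPM per kilobase of exon (mean ± SD, n = 3 in each cell type). No member was the most abundant in all 4 cell types. In HepG2, DICER1 led at 11.4 ± 0.35 RPKM, followed by TNRC6A at 7.98 ± 0.79, and AGO3 (1.81 ± 0.071) and TNRC6C (1.34 ± 0.93) were lowest. In HEK293, DGCR8 (16.6 ± 1.64) and DICER1 (15.1 ± 4.16) were highest with overlapping ranges, and TNRC6C (1.36 ± 0.21) was again lowest. Drosha led in both mouse cell types, at 16.53 ± 1.43 RPKM in Neuro2a and 15.7 ± 1.05 in HippCulture. The lowest were Ago4 in Neuro2a (0.673 ± 0.126) and the overlapping pair Ago4 (1.85 ± 0.10) and Ago3 (1.81 ± 0.30) in HippCulture.

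**Figure D1:**
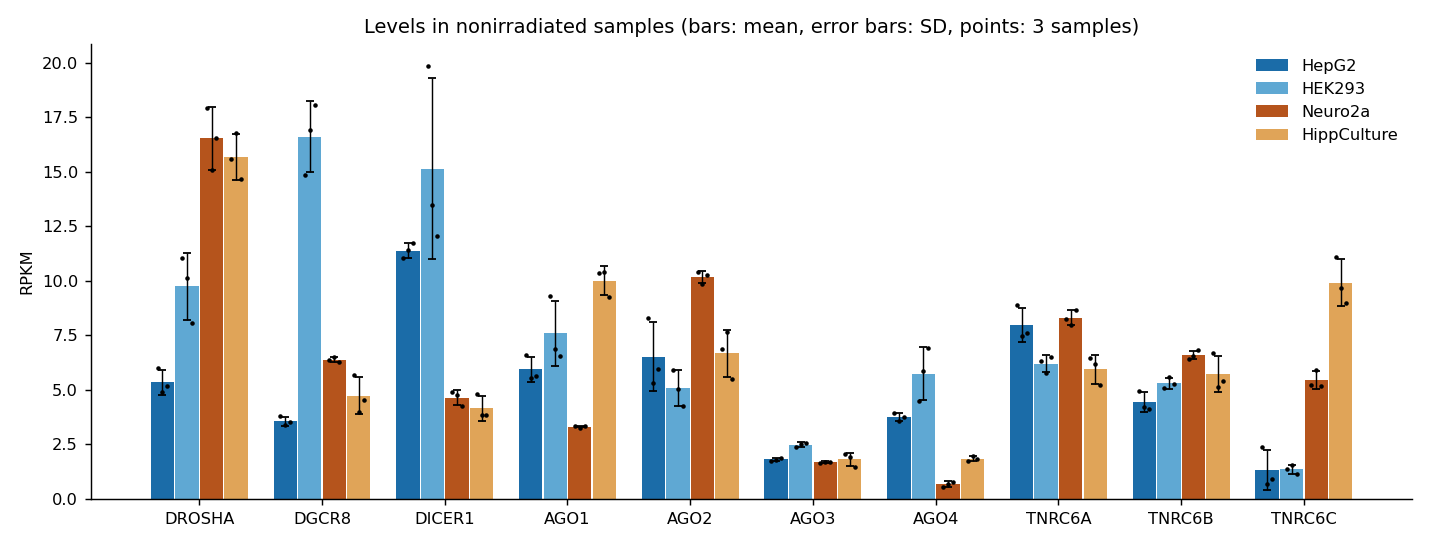
Level of each member without UV, in RPKM, by cell type; bars are means, error bars SD and points the 3 samples, and mouse genes stand under the human symbols. DGCR8 reaches 16.6 RPKM in HEK293 against 3.57 in HepG2, and AGO3 stays between 1.68 and 2.49 RPKM in all cell types.

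Between these ends, neighbours in rank often could not be separated. In HepG2 the ranges of TNRC6A, AGO2 (6.53 ± 1.58 RPKM), AGO1 (5.94 ± 0.59), DROSHA (5.35 ± 0.57) and TNRC6B (4.44 ± 0.46) overlapped from each to the next, as did AGO4 (3.75 ± 0.19) with DGCR8 (3.57 ± 0.21). In HEK293, DROSHA (9.76 ± 1.54) overlapped AGO1 (7.59 ± 1.5), and TNRC6A (6.20 ± 0.39), AGO4 (5.75 ± 1.21), TNRC6B (5.31 ± 0.25) and AGO2 (5.07 ± 0.83) formed a chain above AGO3 (2.49 ± 0.11). In Neuro2a the replicates were tight and only Tnrc6b (6.60 ± 0.20) and Dgcr8 (6.38 ± 0.11) overlapped. Ago2 (10.2 ± 0.29), Tnrc6a (8.30 ± 0.34), Tnrc6c (5.44 ± 0.41), Dicer1 (4.64 ± 0.34), Ago1 (3.32 ± 0.045) and Ago3 (1.68 ± 0.045) each stood clear of their neighbours. In HippCulture, Ago1 (10.01 ± 0.65) and Tnrc6c (9.91 ± 1.08) overlapped, and so did Ago2 (6.68 ± 1.08), Tnrc6a (5.95 ± 0.66), Tnrc6b (5.74 ± 0.83), Dgcr8 (4.73 ± 0.86) and Dicer1 (4.16 ± 0.58) from each to the next.

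The makeup of the Argonaute and TNRC6 families varied between cell types. Ago2 made up 64.2% ± 1.0 (SD, n = 3) of the summed Argonaute RPKM in Neuro2a, and Ago1 49.3% ± 1.8 in HippCulture. In HepG2, AGO1 and AGO2 made up 33.0% ± 1.1 and 35.9% ± 3.9, and AGO4 20.9% ± 1.6. In HEK293, AGO1 made up 36.1% ± 5.3, AGO4 27.7% ± 6.9 and AGO2 24.2% ± 3.0. TNRC6C was 9.2% ± 4.9 of the TNRC6 sum in HepG2 and 10.6% ± 1.7 in HEK293, whereas Tnrc6c was 26.8% ± 2.0 in Neuro2a and 45.9% ± 0.2 in HippCulture. Species were not tested against each other.

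Without UV, 4 of the 10 members differed between HepG2 and HEK293 (edgeR, adjusted p under 0.05). Of these, 2 were higher in HepG2, against 37.6% of all tested genes called that way, and 2 were higher in HEK293, against 38.1% in that direction. DGCR8 was 3.42-fold higher in HEK293 (log2 HepG2 over HEK293 of -1.77 ± 0.13 (SE), edgeR adjusted p = 2.5e-07). DROSHA was 1.35-fold higher there (-0.43 ± 0.16, edgeR adjusted p = 0.031). TNRC6A (0.81 ± 0.14, edgeR adjusted p = 0.00021) and AGO2 (0.80 ± 0.20, edgeR adjusted p = 0.0034) were higher in HepG2, although the sample ranges of AGO2 overlapped. Differences of the other 6 members ran from -0.17 to 0.41 and missed the threshold. The call of DROSHA was lost without HepG2 replicate 2 or 3 or HEK293 replicate 1 or 2 (-0.41 to -0.30), and also with TMM over mRNAs (-0.35), over genes with at least 1 count (-0.34) and over genes with at least 10 counts in every sample (-0.30). That of AGO2 was lost with library sizes alone (0.36). HepG2 alone was sequenced on a HiSeq4000, so cell type and instrument cannot be told apart. The median log2 level of all genes was -0.01 with TMM scaling (a trimmed mean over genes) and -0.45 with library sizes alone.

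Between the mouse cell types 7 of 10 members differed. Higher in HippCulture were 4, against 41.4% of all tested genes, and higher in Neuro2a were 3, against 39.0%. Ago1 was 3.31-fold (log2 Neuro2a over HippCulture of -1.73 ± 0.09, edgeR adjusted p = 1.4e-12), Ago4 3.04-fold (-1.60 ± 0.17, edgeR adjusted p = 1.2e-07) and Tnrc6c 2.0-fold (-1.0 ± 0.09, edgeR adjusted p = 5.3e-09) higher in HippCulture. Ago3 differed less (-0.24 ± 0.10, edgeR adjusted p = 0.039). Ago2 (0.48 ± 0.08, edgeR adjusted p = 3.3e-05), Tnrc6a (0.35 ± 0.08, edgeR adjusted p = 0.00065) and Dgcr8 (0.29 ± 0.12, edgeR adjusted p = 0.028) were higher in Neuro2a. The call of Dgcr8 was lost without Neuro2a replicate 2 (0.23) or HippCulture replicate 2 (0.10), with DESeq2 size factors or the DESeq2 test (0.22 each), and over genes with at least 10 counts in every sample (0.20). That of Ago3 was lost without Neuro2a replicate 1 or 3 or HippCulture replicate 1 (-0.26 to -0.22) and with library sizes alone (-0.11). In these bulk samples, fewer cells of a type and less RNA per cell cannot be told apart. The part of the astrocyte and oligodendrocyte markers seen in HippCulture in these differences was not tested.

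Most members had lower TMM-normalized counts after UV irradiation in every cell type. Shares of a mean given below as kept or remaining refer to such counts, not to RNA amounts. The study proposes that the UV-made bonds also hinder reverse transcription, which these counts cannot tell apart from lower recovery. Relative to the other RNAs, 9 of 10 members were called lower in either human line and in Neuro2a and 8 in HippCulture, and none was called higher. Of all tested genes 40.7%, 26.4%, 33.0% and 25.9% were called lower in HepG2, HEK293, Neuro2a and HippCulture, and 38.1%, 24.2%, 28.9% and 26.1% higher. Without nonirradiated replicate 1 of HepG2 all 10 members were called lower there, and without replicate 1 of both HEK293 groups 8 were. No member was higher at an unadjusted p under 0.05 in edgeR either, or by DESeq2. All 3 irradiated samples lay below all 3 nonirradiated samples for 9, 9, 9 and 8 members, against 42.8%, 32.1%, 37.0% and 30.8% of all tested genes. The exact permutation p of such a separation, 0.1, is the smallest that 3 against 3 samples allow. The members' median log2 fold change was -1.04 in either human line, -1.14 in Neuro2a and -0.59 in HippCulture. For all tested genes, with the human lines given before the mouse cells, the medians were -0.08, -0.08, -0.14 and -0.04. These values are relative: without TMM, with library sizes alone, the medians of all genes moved to -1.39, -0.84, -1.32 and -0.58, and those of the members to -2.34, -1.81, -2.33 and -1.14.

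**Figure D2:**
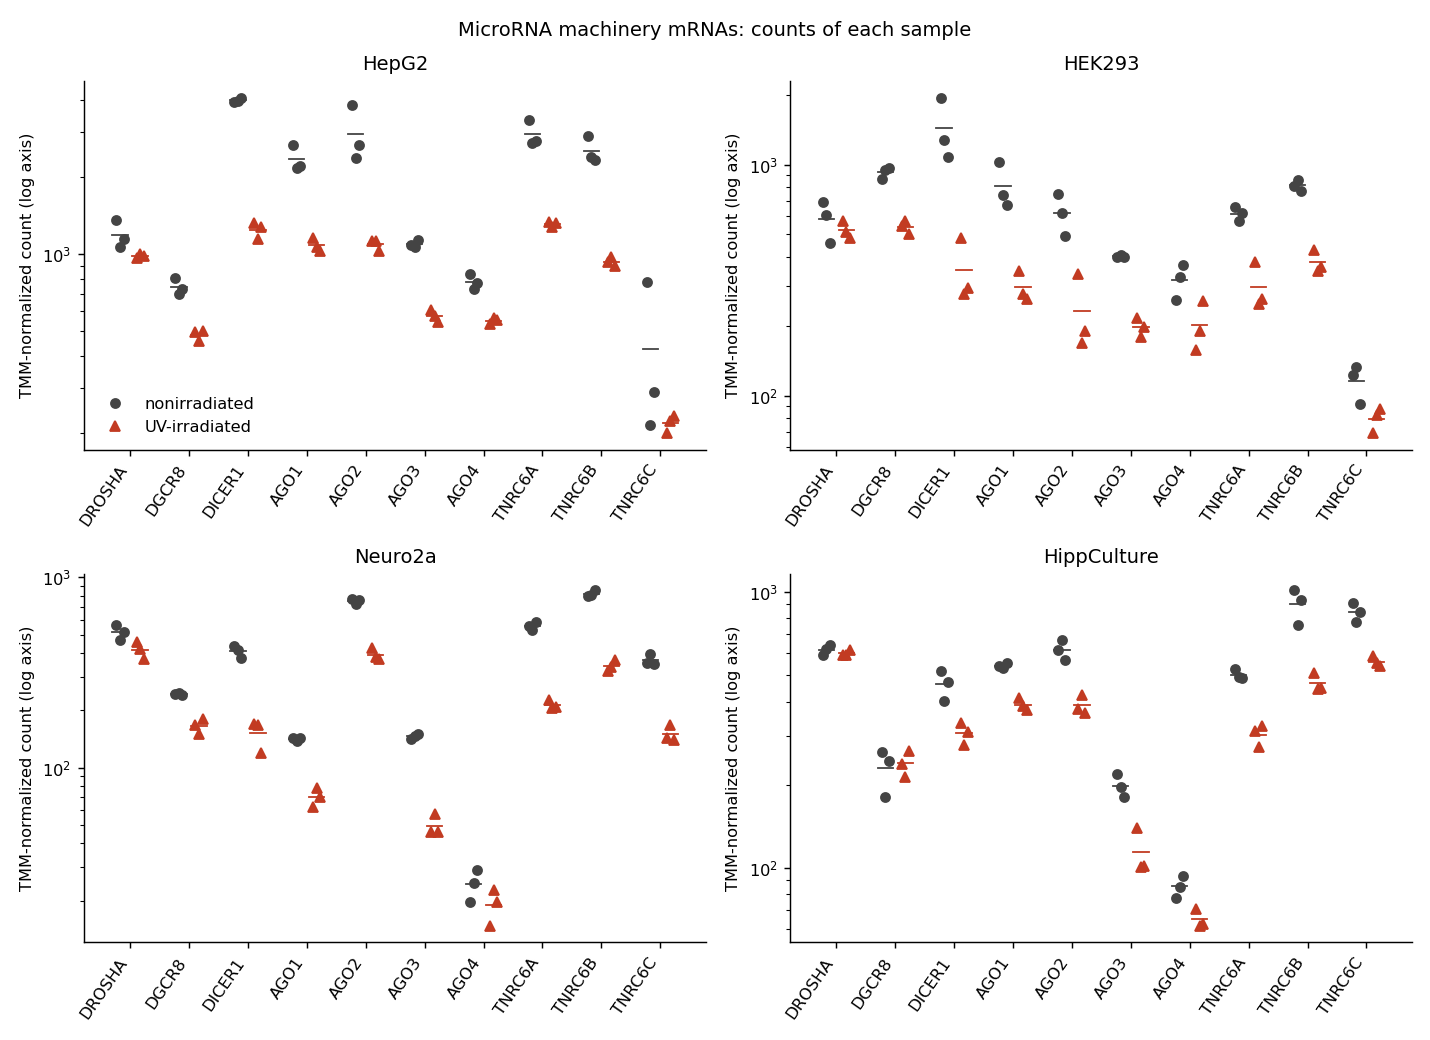
TMM-normalized counts (log axis) of each member in the 3 nonirradiated (grey circles) and 3 UV-irradiated samples (red triangles) of each cell type, with horizontal lines at the means; counts are scaled within a cell type. Most pairs of groups are separate, and TNRC6C in HepG2, DROSHA in HEK293, AGO4 in Neuro2a and DROSHA and DGCR8 in HippCulture overlap.

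**Figure D3:**
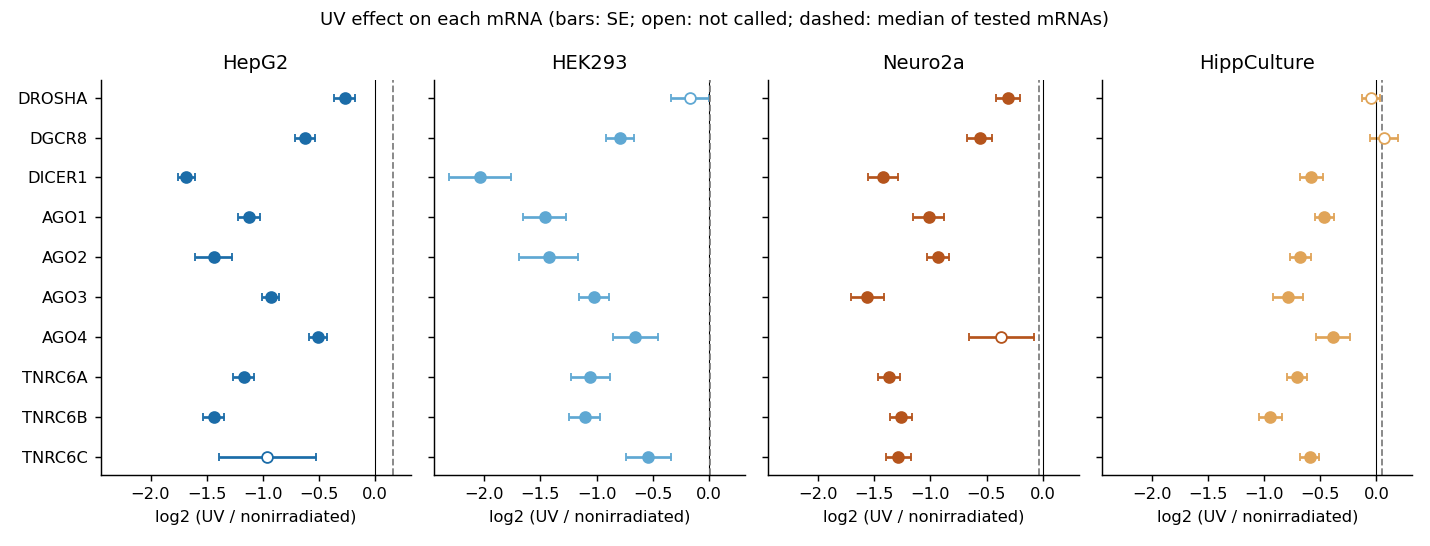
Log2 fold change upon UV with its SE for each member and cell type; filled points have an adjusted p under 0.05 and the dashed line is the median of tested mRNAs. The lowest values are those of DICER1 in HEK293 (-2.04) and HepG2 (-1.68), and DROSHA lies near the dashed line in HEK293 and HippCulture.

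DROSHA, the Microprocessor nuclease, had the smallest log2 fold change in size of the 10 members in every cell type. In HepG2 it had normalized counts of 1358, 1072 and 1146 without UV and 971, 1006 and 989 after UV. The groups did not overlap, but the nearest samples were close, and the log2 fold change was -0.27 ± 0.10 (SE, edgeR adjusted p = 0.028). Drosha in Neuro2a changed by a similar amount (-0.31 ± 0.11, edgeR adjusted p = 0.025). Leaving out 1 library ended the call for 3 of the 6 libraries in HepG2 and 4 of the 6 in Neuro2a. DROSHA missed the threshold in HEK293 (-0.17 ± 0.17, edgeR adjusted p = 0.43) and HippCulture (-0.04 ± 0.08, edgeR adjusted p = 0.66). With library sizes alone both passed it (-0.93 and -0.59).

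DGCR8, the RNA-binding subunit, fell in HepG2 from a mean of 747 ± 57.0 to 485 ± 22.2 normalized counts (SD, n = 3) and in HEK293 from 930.4 ± 54.4 to 539 ± 35.6. The log2 fold changes were -0.62 ± 0.09 (SE, edgeR adjusted p = 0.00018) and -0.79 ± 0.12 (edgeR adjusted p = 0.00084). In Neuro2a, Dgcr8 had 245, 247 and 242 normalized counts without UV and 167, 150.2 and 179 after it (-0.56 ± 0.11, edgeR adjusted p = 0.00054). In HippCulture the values of 263, 181 and 243 without UV and 237, 214 and 265 after UV overlapped entirely. There the log2 fold change was 0.07 ± 0.13 (edgeR adjusted p = 0.69), and with library sizes alone it turned negative (-0.47).

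The microRNA genes inside the exons of DGCR8 held few reads, which could also be reads of the DGCR8 mRNA. MIR1306 had 72 counts over the 3 nonirradiated HepG2 samples, equal to 2.11% of those of DGCR8, and 14 after UV (1.45%). In HEK293 the sums were 108 (3.1%) and 42 (3.21%). MIR3618 had sums of 32 and 11 in HepG2 and 24 and 17 in HEK293. Mir1306 held 47 and 19 counts in Neuro2a and 40 and 24 in HippCulture, and Gm24572 held 31 and 10 in Neuro2a and 21 and 23 in HippCulture. Mir5113, in the 3′ UTR of Tnrc6b, had 29 and 3 counts in Neuro2a and 28 and 11 in HippCulture. None of those tested was called upon UV. At these depths a missing call does not show that the level was unchanged.

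DICER1, the cytoplasmic nuclease, had the most negative log2 fold change of the members in both human lines. In HepG2 its normalized counts were 3954, 3966 and 4089 without UV and 1327, 1149 and 1272 after UV, so that 31.2% of the mean remained. The log2 fold change was -1.68 ± 0.07 (SE, edgeR adjusted p = 3e-07). In HEK293 the counts were 1952, 1279 and 1085 without UV and 483, 276 and 292 after UV, with replicate 1 highest in both groups, and 24.4% remained. Its log2 fold change of -2.04 ± 0.28 (edgeR adjusted p = 0.00036) was lower than those of all but 1.8% of tested mRNAs, and without replicate 1 of both groups it was -2.05 ± 0.12. Mouse Dicer1 kept 37.3% in Neuro2a (434, 415 and 377 against 170.1, 168 and 119 normalized counts). In HippCulture it kept 66.6% (517, 400.3 and 471 against 334, 279 and 311). The groups did not overlap in either, with log2 fold changes of -1.42 ± 0.13 (edgeR adjusted p = 5e-07) and -0.58 ± 0.10 (edgeR adjusted p = 9.6e-05).

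Among the Argonautes, AGO4 had the least negative value in each cell type. In HepG2 its 836, 730.5 and 772 normalized counts became 532, 562 and 554 after UV (log2 fold change of -0.50 ± 0.08, edgeR adjusted p = 0.00044). It was lower in HEK293 (-0.65 ± 0.20, edgeR adjusted p = 0.025) and HippCulture (-0.39 ± 0.15, edgeR adjusted p = 0.038), and leaving out 1 library ended either call for 4 and 5 of the 6 libraries. DESeq2 did not call it in HippCulture (-0.41, adjusted p = 0.11). The HEK293 call of AGO4 was kept by edgeR with replicate number as a block, which pairs same-numbered samples (-0.66). The fits leaving out 1 library were made without this block. In Neuro2a, Ago4 had 19.8, 24.9 and 29.1 normalized counts without UV and 14.8, 22.9 and 19.6 after UV. These ranges overlapped (-0.37 ± 0.29, edgeR adjusted p = 0.29), at a depth of 10 to 43 raw counts per sample. Whether AGO4 differed from the other Argonautes was not tested.

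AGO1, AGO2 and AGO3 were lower in every cell type, and their groups overlapped in none. In HepG2, AGO2 had 3839.7, 2382 and 2666 normalized counts without UV and 1131, 1123 and 1026 after UV. Replicate 1 was the high sample, and the log2 fold change was -1.44 ± 0.17 with it (edgeR adjusted p = 4.6e-05) and -1.28 ± 0.05 without it. In HEK293, AGO2 (748, 617 and 493 against 336, 169 and 190.3) and AGO1 (1033, 738 and 668 against 348, 276 and 262) each had replicate 1 highest in both groups, without overlap. The log2 fold changes were -1.43 ± 0.26 (edgeR adjusted p = 0.0018) and -1.46 ± 0.20 (edgeR adjusted p = 0.00033). AGO1 kept 46.0% of its mean in HepG2, 49.5% in Neuro2a and 72.4% in HippCulture, and AGO2 kept 52.3% in Neuro2a and 62.8% in HippCulture.

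AGO3 showed the most negative value of the Argonautes in mouse cells. In Neuro2a its 142, 147 and 149.7 normalized counts became 45.9, 57.1 and 45.7 (log2 fold change of -1.56 ± 0.15, edgeR adjusted p = 7.2e-07). In HippCulture 218, 196 and 180.1 became 139.5, 100.5 and 102 (-0.79 ± 0.14, edgeR adjusted p = 5.7e-05). In the human lines it kept 52.5% in HepG2 (-0.93 ± 0.08, edgeR adjusted p = 5.4e-06) and 49.3% in HEK293 (-1.02 ± 0.13, edgeR adjusted p = 0.00026), between AGO4 and the other Argonautes.

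Of the TNRC6 scaffolds, TNRC6B was the lowest member in HippCulture. There Tnrc6b had 1011, 759 and 937 normalized counts without UV and 509, 443 and 449 after UV, with no overlap. The log2 fold change of -0.95 ± 0.10 (edgeR adjusted p = 1.7e-07) was below all but 5.2% of tested mRNAs. TNRC6B fell to 36.9% in HepG2 (-1.44 ± 0.10, edgeR adjusted p = 1.6e-06), 46.5% in HEK293 (-1.11 ± 0.14, edgeR adjusted p = 0.00021) and 41.6% in Neuro2a (-1.26 ± 0.10, edgeR adjusted p = 6.7e-08). TNRC6A ran close to it, with log2 fold changes of -1.37 ± 0.10 in Neuro2a and -0.71 ± 0.09 in HippCulture, and of -1.17 ± 0.09 in HepG2 and -1.06 ± 0.17 in HEK293. All 4 were called lower by edgeR, with adjusted p from 4.7e-08 to 0.001.

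TNRC6C differed most in how well it was measured. In HepG2 its normalized counts without UV were 777, 215 and 291, and those after UV were 200.1, 222 and 234. Replicate 1 stood far above the others and the groups overlapped. The log2 fold change of -0.96 ± 0.43 (edgeR adjusted p = 0.068) became -0.27 ± 0.12 (edgeR adjusted p = 0.034) without that library. In HEK293 the 123, 134 and 92.5 normalized counts fell to 69.0, 82.4 and 87.4 (-0.54 ± 0.20, edgeR adjusted p = 0.048). That call was lost by DESeq2, with every gene with at least 1 count, and without either of 2 nonirradiated libraries or any irradiated one. It was also lost without replicate 1 of both groups (-0.40 ± 0.19, edgeR adjusted p = 0.082). The call was kept by edgeR with the replicate block, which pairs same-numbered samples (-0.52). Mouse Tnrc6c was firmer, at -1.29 ± 0.11 in Neuro2a (354, 396 and 351 against 144, 168 and 140.2; edgeR adjusted p = 3.3e-07). In HippCulture 909, 775 and 845 became 584, 553 and 537 (-0.59 ± 0.09, edgeR adjusted p = 7.1e-06).

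The change of the members was set beside 3′ UTR length, with which the fold change varied among mRNAs in general. Among mRNAs tested in HepG2, split by length into 4 classes of equal size, the median log2 fold change was 0.91 in the class with the shortest 3′ UTRs and -0.62 in the class with the longest. In HippCulture these medians were 0.46 and -0.41, while Neuro2a had 0.63 and -0.74 and HEK293 had 0.62 and -0.65. Of the members, 6 in each human line and 8 in each mouse cell type belonged to the longest class. Most members lay below the median of their own class. In HEK293 all 10 did, with a median distance of -0.55. In HepG2 9 of 10 did (-0.81), as in Neuro2a (-0.53), and in HippCulture 8 of 10 (-0.23). DICER1 lay furthest below in HEK293 (by -1.39), TNRC6A in HepG2 (-1.12), Drosha in Neuro2a (-0.93) and Tnrc6b in HippCulture (-0.54). The place of mouse Drosha rests on its annotated 3′ UTR of 168 nucleotides, in the shortest class, while human DROSHA has 938. AGO4 lay above the median of its class by 0.12 in HepG2, 0.38 in Neuro2a and 0.02 in HippCulture. The longest class was broad and did not match the members in length. For mRNAs with 3′ UTRs of at least 4000 nucleotides, medians were -0.819 (HepG2), -0.822 (HEK293), -1.072 (Neuro2a) and -0.625 (HippCulture). Of the members this long, AGO4 in both human lines, Ago1 and Ago2 in Neuro2a and Ago1 in HippCulture lay above these medians. The others lay below. Over the 10 members, Spearman's rho of 3′ UTR length with log2 fold change was -0.71 in HippCulture, -0.50 in Neuro2a, -0.56 in HEK293 and -0.42 in HepG2. For exon length, rho was -0.81 in HippCulture, -0.76 in Neuro2a, -0.55 in HEK293 and -0.58 in HepG2. These members share libraries and scaling, so the values are descriptions. The 3′ UTR of a single transcript stands for each gene.

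**Figure D4:**
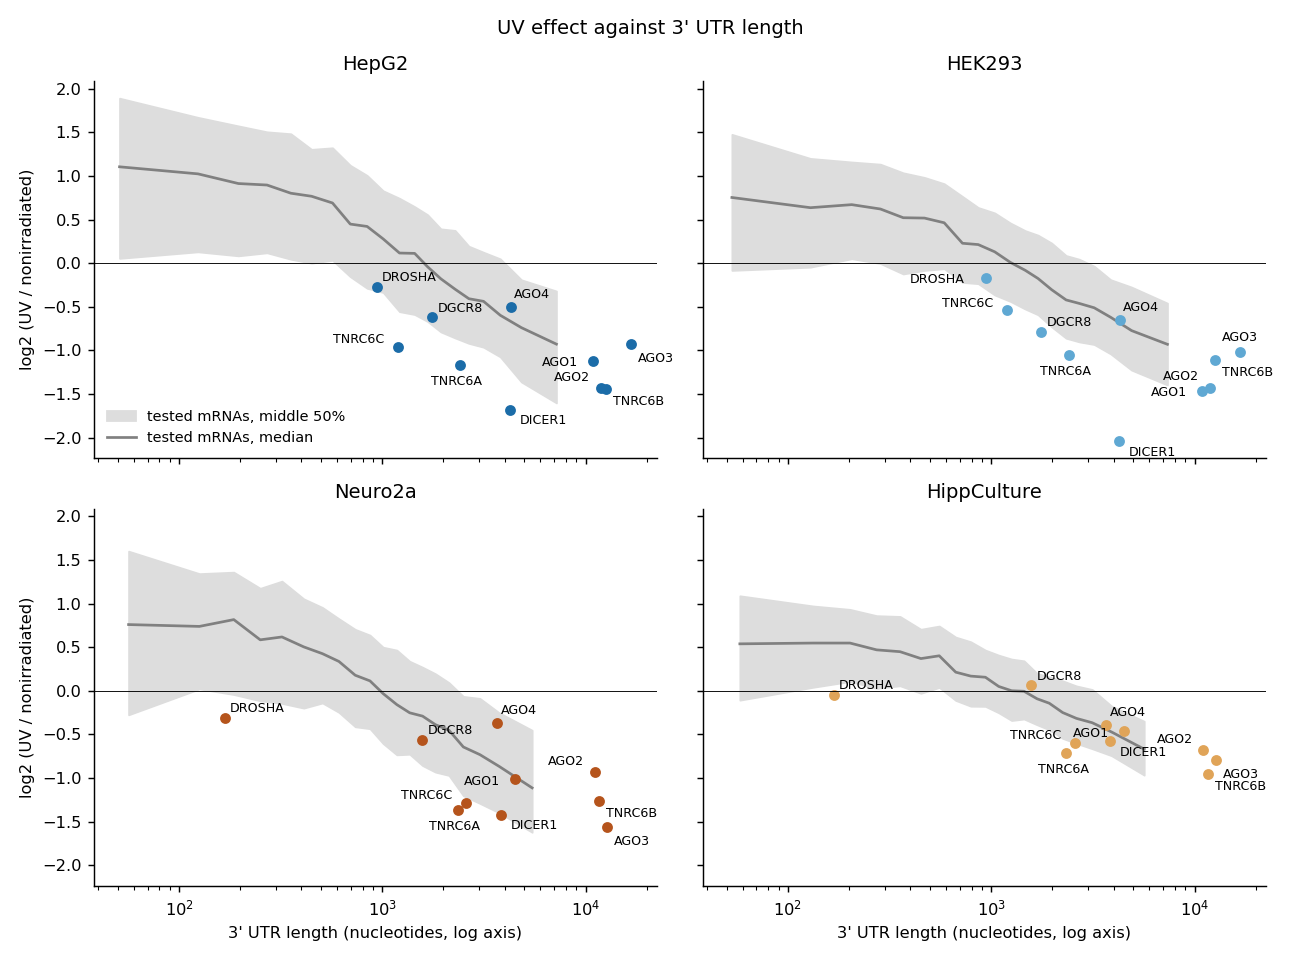
Log2 fold change upon UV (vertical axis) against 3′ UTR length (log axis) for the 10 members (points, named) over the median (line) and the middle 50% (band) of tested mRNAs in 20 bins of length. DICER1 lies at -2.04 in HEK293, below the band, and AGO4 lies on or above the line in HepG2, HEK293 and Neuro2a.

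The effect of UV was smaller in HippCulture than in Neuro2a for 6 of 10 members, by edgeR's test of the interaction of cell type and UV (24.5% of all tested genes were called there). The difference, Neuro2a minus HippCulture, was -0.84 ± 0.18 (SE) for Dicer1 (edgeR adjusted p = 0.0022), -0.78 ± 0.22 for Ago3 (edgeR adjusted p = 0.014) and -0.70 ± 0.15 for Tnrc6c (edgeR adjusted p = 0.002). It was -0.66 ± 0.13 for Tnrc6a (edgeR adjusted p = 0.0015), -0.63 ± 0.18 for Dgcr8 (edgeR adjusted p = 0.017) and -0.56 ± 0.15 for Ago1 (edgeR adjusted p = 0.012). The calls of Ago1 and Dgcr8 were lost by DESeq2. That of Dgcr8 was also lost without Neuro2a irradiated replicate 2 (-0.57) or HippCulture irradiated replicate 3 (-0.51), and that of Ago3 without HippCulture irradiated replicate 1 (-0.59). Drosha, Ago2, Ago4 and Tnrc6b missed the threshold, at -0.27 ± 0.14, -0.26 ± 0.13, 0.02 ± 0.34 and -0.32 ± 0.16. The median difference of all tested genes was -0.14, and -0.78 with library sizes alone. Fold changes of mRNAs in general spanned less in HippCulture. Medians of the shortest and longest 3′ UTR classes were 0.46 and -0.41 there, and 0.63 and -0.74 in Neuro2a. Tested mRNAs with a lower value made up 7.9% in Neuro2a and 8.8% in HippCulture for Ago3, and 10.7% and 11.1% for Tnrc6a. These shares were 12.4% and 15.3% for Tnrc6c, 18.3% and 21.3% for Ago1, 9.8% and 15.8% for Dicer1, and 31.3% and 50.8% for Dgcr8. The summed astrocyte markers were 645.5 CPM in HippCulture and 2.77 CPM in Neuro2a without UV. The part of these markers in the difference in UV effect was not tested.

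The same test was made between HepG2 and HEK293. None of the 10 members was called by edgeR (7.95% of all tested genes were), 1 had an unadjusted p under 0.05, and DESeq2 called 0. With library sizes alone 4 were called, and with the replicate block 1. That member was TNRC6B, with the more negative value in HepG2 (difference of -0.43 ± 0.16, edgeR adjusted p = 0.12, and -0.42 ± 0.14 with the replicate block, edgeR adjusted p = 0.045). The interaction was fitted and scaled over both lines together. Its values therefore depart from the differences of the separately fitted fold changes (-1.44 and -1.11 for TNRC6B). The other 9 differences ran from -0.52 to 0.26, with SEs of 0.14 to 0.54, and the SE of TNRC6C was the highest.

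**Figure D5:**
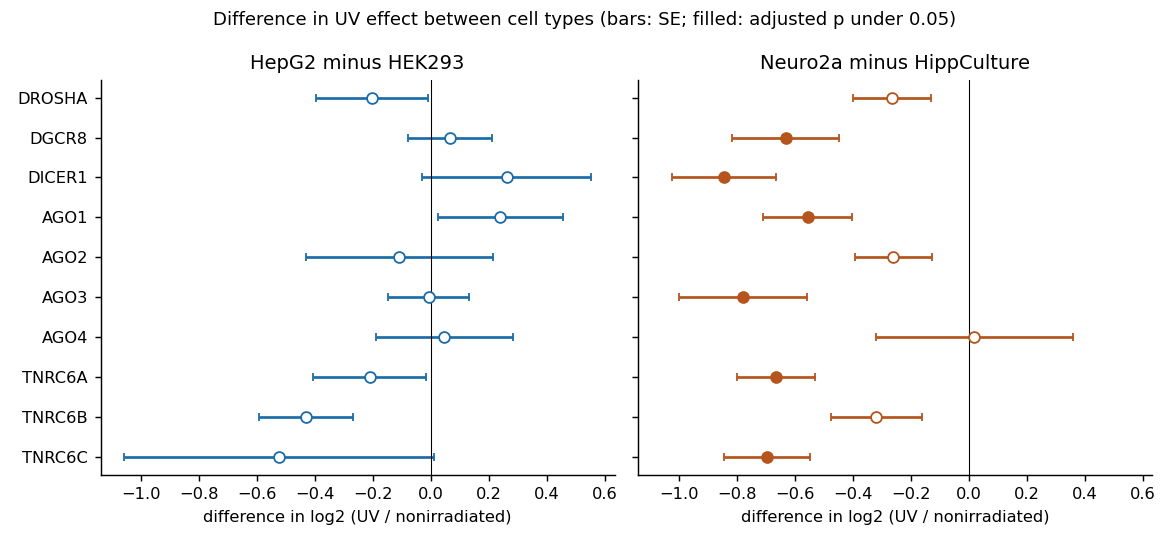
Difference in log2 fold change upon UV between cell types of a species (horizontal axis, error bars SE) for each member; filled points have an adjusted p under 0.05. All values of HepG2 minus HEK293 are open, and 6 of Neuro2a minus HippCulture are filled, from -0.84 to -0.56.

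With TMM scaling, other genes of the pathway were called in both directions. Of 14 biogenesis partners, 6 were called lower and 4 higher in HepG2 (median log2 fold change of -0.31), and 6 and 3 in HEK293 (-0.24). In Neuro2a 9 were lower and 3 higher (-0.55), and of 13 tested in HippCulture 3 were lower and 3 higher (-0.10). The shares of all tested genes called in each direction, given above, bear on these counts: 40.7% were lower and 38.1% higher in HepG2. With library sizes alone none of the partners was called higher in any cell type, and 12, 10, 13 and 10 were called lower. RAN, the GTPase that powers export of pre-microRNAs with XPO5, and TARBP2, the double-stranded RNA-binding partner of DICER1, were the 2 highest in every cell type. In HepG2, TARBP2 rose from 652 ± 74.1 to 1813 ± 24.8 normalized counts (log2 fold change of 1.47 ± 0.09, edgeR adjusted p = 1.1e-06) and RAN by 1.37 ± 0.13 (edgeR adjusted p = 1.4e-05). In HEK293 their values were 0.88 ± 0.22 (edgeR adjusted p = 0.0083) and 0.81 ± 0.20 (edgeR adjusted p = 0.0081). In Neuro2a they were 0.95 ± 0.10 and 0.99 ± 0.11, and in HippCulture 0.76 ± 0.13 and 0.56 ± 0.08, all 4 called by edgeR with adjusted p from 1.2e-06 to 3.6e-05. With library sizes alone neither was called higher in any cell type, and in Neuro2a both turned negative (-0.25 for Tarbp2 and -0.20 for Ran). RAN has processed pseudogenes of near-identical sequence, so its counts are uncertain. LIN28A, which blocks maturation of let-7, was the lowest listed gene in HepG2 (-2.72 ± 0.40, edgeR adjusted p = 0.00023). In HEK293 it had 6, 4 and 5 raw counts without UV and 0 after, at least 3.27-fold lower against a floor of 3 counts over the irradiated group. DDX17, an RNA helicase of the Microprocessor named after its values were seen, was the only partner called lower in all 4 cell types. RAN and TARBP2 were the only ones called higher in all 4. Of the gene symbols tested in all 4, 14.3% were called lower and 21.3% higher in each.

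The silencing effectors, which act after TNRC6 proteins, were more often called lower than higher. Of 25 tested in each cell type, 14 were called lower and 7 higher in HepG2 (median of -0.42), where 3 were higher with TMM over mRNAs and 2 over genes with at least 10 counts in every sample. HEK293 had 13 lower and 2 higher (-0.45), with 0 to 3 higher when 1 library was left out (0 without nonirradiated replicate 2 or 3). There 5 were higher with the replicate block, and 5 without replicate 1 of both groups. Neuro2a had 16 lower and 2 higher (-0.53), and HippCulture had 12 lower and none higher (-0.16) by edgeR, with 2 higher at an unadjusted p under 0.05 and none by DESeq2. With library sizes alone 25 were lower in HepG2 and in Neuro2a, 23 in HEK293 and 20 in HippCulture, and none was higher. Of all genes, 40.7% (HepG2), 26.4% (HEK293), 33.0% (Neuro2a) and 25.9% (HippCulture) were called lower with TMM. Called lower in all 4 cell types were 11, beside 14.3% of the 9581 gene symbols tested in all 4 (and 21.3% called higher in all 4), namely CNOT1, CNOT4, CNOT6, CNOT6L, CNOT7 and PAN3 of the deadenylases and their partners, DCP1A, DCP2, DDX6 and LSM14A of decapping, and the exonuclease XRN1, named after their values were seen. CNOT6 was among the 2 lowest listed genes in HepG2 (-2.12 ± 0.27, edgeR adjusted p = 8.5e-05) and Neuro2a (-2.12 ± 0.12, edgeR adjusted p = 6.7e-09). Cnot6l was the lowest in Neuro2a (-2.52 ± 0.14, edgeR adjusted p = 5.2e-09) and HippCulture (-1.52 ± 0.14, edgeR adjusted p = 1.2e-08). DCP2, the decapping enzyme, fell in HEK293 from 2248 ± 146 to 601 ± 10.9 normalized counts (-1.90 ± 0.13, edgeR adjusted p = 3.1e-05) and in HippCulture by a log2 of -1.35 ± 0.12 (edgeR adjusted p = 1.7e-08). The lists were written by hand and their medians may be read beside those of all tested genes given above.

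Over 9581 gene symbols tested in all 4 cell types, the genes whose 4 log2 fold changes lay nearest to the members' medians were LRP6, AHCTF1 and DYNC1LI2. Their Euclidean distances were 0.092, 0.101 and 0.103. LRP6, a Wnt co-receptor, had log2 fold changes of -1.02 (HepG2), -1.08 (HEK293), -1.20 (Neuro2a) and -0.54 (HippCulture).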

How the data were processed

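Per the labels and the study's methods, RNA was extracted with TRIzol from nonirradiated and UV-irradiated cells, all lysates were heated at 55 °C for 10 minutes, ribosomal RNA was removed with Ribo-Zero, and sequencing used a HiSeq4000 for HepG2 and a HiSeq2500 for the rest. HippCulture cells had been treated with AraC against dividing glia. The authors aligned reads to hg38 or mm10 with TopHat2 2.1.1 and made the deposited counts per gene of GENCODE 28 or M17 with featureCounts 1.5.3 (HepG2) or 1.6.1, letting a read count for each gene it overlapped.

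The members and gene lists were chosen with earlier results of these data known. Counts were tested as deposited with edgeR 4.0.16 (quasi-likelihood, TMM, Benjamini-Hochberg at 0.05) in R 4.3.3, over all genes with a mean of at least 0.5 CPM in nonirradiated samples. UV was tested within a cell type, and its difference by an interaction term within a species. Levels without UV were tested between the nonirradiated samples of the cell types of a species. DESeq2 1.42.0 was an alternative. Normalized counts are counts divided by TMM effective library sizes relative to their geometric mean over the 6 libraries of a cell type, so they do not compare genes or cell types. SE is the standard error of the fitted log2 fold change. Exact permutation tests were two-sided. Deviations of HEK293 samples from their group means had correlations of 0.589, 0.302 and 0.391 for same-numbered samples. Correlations were 0.236 and 0.22 between replicates 2 and 3, and -0.449 to -0.371 between replicate 1 and the others. Pairing by number cannot be told apart from replicate 1 standing apart in both groups, and no label says why. The sources name different library kits, so strandedness was taken as not stated.

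Gene classes and UTRs came from GENCODE 44 and M21, with UTRs on the transcript with the longest open reading frame. By identifier, 99.0% of human and 99.82% of mouse genes matched. Exon lengths and shared exon bases came with the deposited counts and cover all exons of a gene. Motifs were searched on the mRNA strand with any overlap. Over both pathway lists, the 2 lowest and 2 highest called genes of each cell type were named, and the 3 other genes nearest to the members' medians. Scripts were tested on simulated counts. The depth leaves counting error, and TMM assumes that most genes do not change, which here sets the zero of every fold change.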

Additional observations from a re-analysis of the deposited data

Results flagged for a closer look

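The effect of UV differed between Neuro2a and HippCulture by the interaction test for 6 members, all more negative in Neuro2a. The differences in log2 fold change were -0.844 for Dicer1 (3 of 3 irradiated samples below every nonirradiated one in both cell types), -0.779 for Ago3, -0.697 for Tnrc6c, -0.665 for Tnrc6a, -0.632 for Dgcr8 and -0.556 for Ago1. All were tested with edgeR over 14973 genes, where 24.5% were called in either direction. Fold changes of mRNAs in general also spanned less in HippCulture than in Neuro2a. Glial marker levels differed as well, and their part was not tested. Summed astrocyte markers were 645.5 CPM in HippCulture and 2.77 CPM in Neuro2a. Summed oligodendrocyte markers were 25.7 CPM in HippCulture and 8.34 CPM in Neuro2a, and HEK293 held them at 39.7 CPM. Outlying samples were looked for only through the chi-square between replicates and the fits without 1 library.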

How the results depend on the processing

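Over all alternatives, 489 of 530 values of members upon UV kept their direction and side of the threshold, 25 lost the call, 10 gained it and 6 changed sign, all of Dgcr8 or Drosha in HippCulture. Of 208 values of the other named genes 200 kept both, 5 lost the call and 3 changed sign. Those 3 were, with library sizes alone, Ran (-0.199) and Tarbp2 (-0.245) in Neuro2a and Ran (-0.0) in HippCulture. Dgcr8 in HippCulture was -0.474 with library sizes alone, -0.003 with TMM over mRNAs and -0.022 over genes with at least 10 counts in every sample. Leaving out 1 library gave -0.046 to 0.205 for Dgcr8 and -0.066 to 0.029 for Drosha in HippCulture. The cause was not tested.

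The number of members with a different effect in HepG2 and HEK293, 0, became 4 with library sizes alone and 1 with the replicate block. The block changed no member's call upon UV. Same-numbered samples went together most in HEK293, where replicates 2 and 3 did so too across numbers (0.236 and 0.22). Correlations of same-numbered samples were weaker in Neuro2a and HippCulture (0.048 to 0.228) and near none in HepG2 (-0.01 to 0.036). Leaving out 1 library gave 8 to 10 members called lower in HepG2, 7 to 8 in HEK293, 8 to 9 in Neuro2a and 7 to 8 in HippCulture, 5 to 6 with a different effect in the mouse cells, and 3 to 5 (human) and 6 to 7 (mouse) with a different level. Of the values for called differences in effect 109 of 114 kept their call, as did 115 of 132 for levels.

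Over all genes, library sizes alone turned 8189 lower and 7660 higher genes in HepG2 into 15830 and 1734. These were 5405 and 4962 against 11168 and 1557 in HEK293, 5746 and 5033 against 12852 and 1058 in Neuro2a, and 4791 and 4822 against 9149 and 1320 in HippCulture. For the difference between human lines, 812 lower and 520 higher became 2930 and 120 with library sizes alone, 1244 and 335 over genes with at least 1 count, 522 and 268 over genes with at least 10, and 1443 and 2092 with the replicate block, and DESeq2 gave 899 higher. For the mouse cells 2411 and 1256 became 7519 and 64 with library sizes alone, and 766 higher over genes with at least 1 count. Over genes with at least 10 counts in every sample, fewer were tested, and those with a different level went from 9089 and 8960 to 5384 and 5468 (human) and from 8660 and 8174 to 4915 and 4939 (mouse). The fits without replicate 1 of both HEK293 groups were added after seeing the data and gave 8 members called lower.

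Ago4 in Neuro2a and the microRNA genes rested on few counts, so small changes there were not detectable.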
